A study of Mus musculus with 23 samples.

Results

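Cholesterol synthesis, uptake and storage were followed through 28 genes in the livers of weanling mice, and all 28 were among the 49585 genes of the deposited count table. The genes were taken by name: 7 act in the mevalonate steps, 12 in the squalene and sterol steps, 3 sense or control sterol supply, 4 take up cholesterol or release it from lysosomes, and 2 esterify it. Polyadenylated RNA was sequenced from whole liver of 23 C57Bl/6J mice, 1 library each, with 16876460 to 34527932 counts per library. The mothers had been fed a diet with 10% fat (control) or 45% fat (high fat) for 7 or 17 weeks and mated to males on the control diet, litters were set to 5 pups, and pups were moved at birth to a foster dam that had delivered on the same day.

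The 4 groups are named by birth dam and then foster dam, where Ct stands for a control dam and MetS for a dam with metabolic syndrome. Ct-Ct (6 mice) had neither exposure, MetS-Ct (6 mice) was exposed before birth only, Ct-MetS (6 mice) during nursing only, and MetS-MetS (5 mice) at both times. All pups, the controls included, were cross-fostered. They were killed at postnatal day 21, apart from MetS-Ct_97, whose label gives day 22. The labels do not tie a mouse to its litter, its sex or its dam's weeks on diet, so littermates may be counted as separate replicates. Hepatocyte markers summed to 118855 to 165205 CPM (counts scaled to a common library size) per library, with none of the 10 at 0. Macrophage markers differed between the groups and are given below beside the genes they accompany. Erythroid markers differed too, summing to 156 to 265 CPM in MetS-Ct and 355 to 650 CPM in MetS-MetS. Their sums were 173 to 418 CPM in Ct-MetS and 243 to 692 CPM in Ct-Ct, and their part in the values below was not tested.

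Liver cells build cholesterol from acetyl-CoA through mevalonate, farnesyl diphosphate, squalene and lanosterol. The rate is set largely by the transcription factor SREBP2 (gene Srebf2): when membrane sterol falls, its escort SCAP carries it from the endoplasmic reticulum to the Golgi, where it is cut and freed, and when sterol is plentiful the INSIG proteins hold the complex back. SREBP2 binds sterol regulatory elements near the start of its target genes, often beside CCAAT boxes bound by the factor NF-Y.

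Promoter sequence was available in the RefSeq table (GRCm38.p6) for 21 of the 28 genes, as 24 windows reaching from 250 bases before to 50 bases after a gene start. Sequences of 6 genes are shown, cut to bases that no annotated exon covers: 4 genes whose RNA moved together between the livers (Hmgcs1, Mvk, Mvd and Insig1), 1 synthesis gene that moved little (Lbr), and 1 gene that moved the opposite way (Mylip). Capitals mark CCAAT on either strand (ATTGG where it lies on the opposite strand), TCACNCCAC, which is a form of the sterol regulatory element, and CACGTG, an E-box. The stretches are, on GRCm38.p6, chr13:119690101-119690350 (plus strand) for Hmgcs1, chr5:114444061-114444268 (plus) for Mvk, chr8:122443423-122443672 (minus) for Mvd, chr5:28071162-28071362 (plus) for Insig1, chr1:181842402-181842651 (minus) for Lbr and chr13:45389492-45389741 (plus) for Mylip. The Lbr stretch precedes the RefSeq start but lies inside the longer GENCODE gene (chr1:181815335-181843046), which has an exon farther upstream.
Hmgcs1: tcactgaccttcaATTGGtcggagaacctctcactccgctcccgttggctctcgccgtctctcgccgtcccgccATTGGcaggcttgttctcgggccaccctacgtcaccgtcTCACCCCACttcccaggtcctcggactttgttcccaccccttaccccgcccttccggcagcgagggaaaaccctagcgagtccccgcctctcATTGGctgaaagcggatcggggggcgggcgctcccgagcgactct
Mvk: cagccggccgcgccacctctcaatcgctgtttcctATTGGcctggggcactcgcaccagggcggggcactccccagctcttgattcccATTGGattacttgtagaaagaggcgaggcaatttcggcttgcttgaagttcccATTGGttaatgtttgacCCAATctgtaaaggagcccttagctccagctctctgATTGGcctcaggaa
Mvd: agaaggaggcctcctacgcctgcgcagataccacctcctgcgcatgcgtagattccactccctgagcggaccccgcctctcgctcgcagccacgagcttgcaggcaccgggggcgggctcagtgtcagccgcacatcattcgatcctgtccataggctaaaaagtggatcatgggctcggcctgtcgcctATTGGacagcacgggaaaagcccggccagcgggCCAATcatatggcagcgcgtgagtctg
Insig1: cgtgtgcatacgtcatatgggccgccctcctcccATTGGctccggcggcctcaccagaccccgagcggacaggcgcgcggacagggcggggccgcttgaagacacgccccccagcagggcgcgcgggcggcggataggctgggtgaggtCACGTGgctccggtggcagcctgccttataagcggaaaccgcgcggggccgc
Lbr: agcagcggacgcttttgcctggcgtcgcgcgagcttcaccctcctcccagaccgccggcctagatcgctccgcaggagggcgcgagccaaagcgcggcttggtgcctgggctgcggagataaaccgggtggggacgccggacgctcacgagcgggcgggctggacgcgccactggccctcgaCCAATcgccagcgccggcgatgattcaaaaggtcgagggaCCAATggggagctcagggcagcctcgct
Mylip: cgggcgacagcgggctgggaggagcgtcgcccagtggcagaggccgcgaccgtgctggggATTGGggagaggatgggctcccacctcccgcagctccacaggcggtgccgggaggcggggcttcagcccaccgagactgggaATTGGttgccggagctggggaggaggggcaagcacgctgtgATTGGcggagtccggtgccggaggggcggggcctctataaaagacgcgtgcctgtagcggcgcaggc

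CCAAT, searched on both strands, was in 15 of the 19 windows of synthesis genes (78.95%), which cover 16 genes. It was also in 5 of the 5 windows of other members, and in 37.41% of all 32851 promoter windows of the same length. At least 3 copies were in 5 of those 19 windows and in 3.37% of all windows. Mvk held 5 copies, and its whole stretch is the 208-base gap to Mmab, a gene of vitamin B12 metabolism that is transcribed the other way (Mmab at chr5:114431034-114444060, Mvk at chr5:114444269-114460591). The sterol element form TCACNCCAC was in 1 member's window, that of Hmgcs1, starting 137 bases before the gene start (position -137), and in 1.242% of all windows. CACGTG was in the Insig1 window at position -101 and in 3 windows of synthesis genes, against 7.15% of all windows. Lbr with 2 CCAAT copies and Mylip with 3 also held the box, so this count did not separate genes by how they moved.

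The synthesis genes varied widely from liver to liver inside every group, and they varied together. Sqle, squalene epoxidase and a slow step of the pathway, ranged 42.7-fold over the 23 libraries, Mvd (mevalonate diphosphate decarboxylase) 28.6-fold, Idi1 (isopentenyl diphosphate isomerase) 16.1-fold and Hmgcs1 (the HMG-CoA synthase of the cytosol) 13.9-fold. Fdps ranged 41.3-fold, but its lowest level, 0.211 CPM in MetS-Ct_53, rested on 6 counts. The within-group standard deviation of log2(CPM + 0.5) had a median of 0.81 over the 19 synthesis genes and 0.23 over all 14466 genes tested, and 17 of the 19 lay above the 90th percentile of all genes (0.47). The 2 others were Ebp (sterol isomerase, SD 0.24) and Lbr (lamin B receptor, which is both a sterol reductase and a protein of the nuclear envelope, SD 0.20). Among the 8 other members tested, Insig1 (0.92) and Stard4 (0.57) passed that percentile. Npc1 (0.36), Soat2 (0.34) and Mylip (0.34) lay under it but above the median of all genes. Npc2 (0.18), Scarb1 (0.20) and Soat1 (0.25) lay near or below that median.

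**Figure D1:**
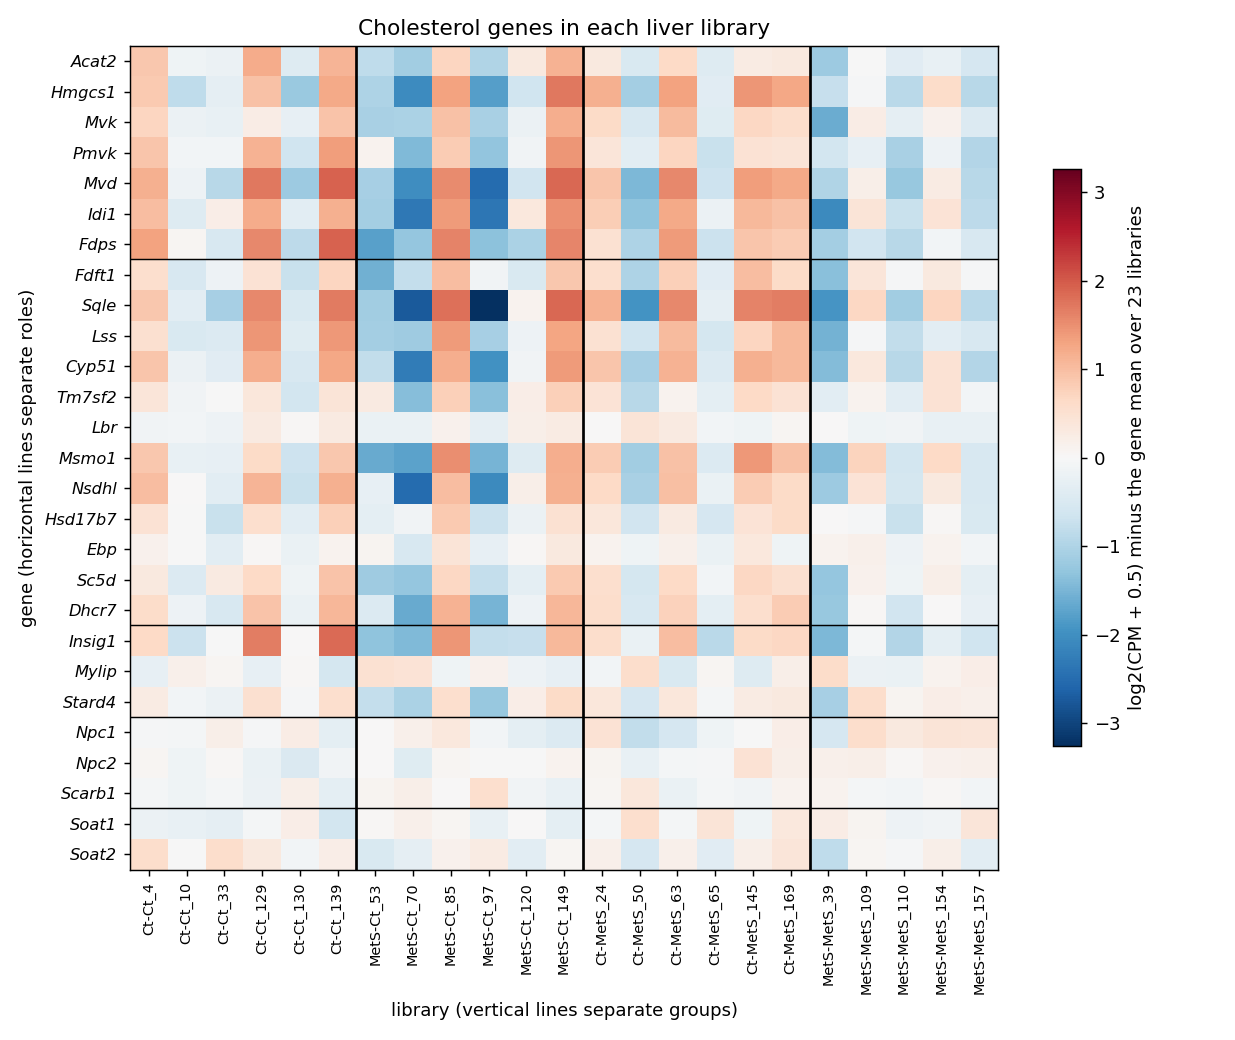
Each cell is log2(CPM + 0.5) of 1 of the 27 members tested (rows, by role) in 1 of 23 libraries (columns, by group), minus that gene's mean over the libraries; red is above and blue below the mean. Whole columns are red or blue over the synthesis genes and Insig1, in every group, while Lbr, Ebp, Npc2 and Scarb1 stay pale.

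Hmgcs1 shows the pattern. In Ct-Ct livers its lowest, median and highest levels were 124.5, 378 and 674 CPM, and in MetS-Ct livers 68.9, 164 and 957 CPM. In Ct-MetS livers they were 134, 669 and 787 CPM. The 5 MetS-MetS livers had 153.5, 156.5, 169.8, 281 and 440 CPM, so that the 2 extremes of the study, MetS-Ct_70 and MetS-Ct_149, came from 1 group, and all groups overlapped. MetS-MetS lacked livers above 440 CPM, but each other group also held livers at or below its middle value of 169.8 CPM.

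Sqle followed the same libraries. Its lowest, median and highest levels were 6.10, 64.6 and 79.2 CPM in Ct-MetS livers, 2.15, 18.9 and 91.7 CPM in MetS-Ct livers, and 11.4, 32.9 and 81.3 CPM in unexposed ones. The MetS-MetS livers had 6.18, 11.01, 13.3, 39.7 and 40.3 CPM. Its lowest library was MetS-Ct_97 and its highest MetS-Ct_149, and the groups overlapped throughout.

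Idi1 ran from 16.02 to 51.2 CPM in unexposed livers, from 3.82 to 61.7 after prenatal exposure only, from 8.53 to 52.0 after nursing exposure only and from 4.75 to 29.7 after both. Cyp51, the lanosterol demethylase, ran from 77.1 to 268 CPM in the first of these groups, then from 22.4 to 291, from 52.9 to 249 and from 41.7 to 154.3 CPM in the same order. Both genes were highest in MetS-Ct_149, and no group stood apart from the others.

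Added over the 19 synthesis genes, the RNA amounted to 791 CPM in the lowest library (MetS-Ct_70) and 4144 CPM in the highest (MetS-Ct_149), a 5.24-fold range. The sum averaged 1686 ± 541 CPM in MetS-MetS (SD, n = 5), 2650 ± 993 in Ct-MetS (n = 6), 2080 ± 1480 in MetS-Ct (n = 6) and 2451 ± 996 in Ct-Ct (n = 6). MetS-Ct held the 2 lowest libraries, MetS-Ct_70 and MetS-Ct_97 (960 CPM), as well as the highest and the third highest, MetS-Ct_85 (3745 CPM). In MetS-Ct_70 and MetS-Ct_97 all 19 genes were among their own 10 lowest libraries, and in MetS-Ct_85, MetS-Ct_149, Ct-Ct_139 and Ct-MetS_24 all 19 were among their own 10 highest. In bulk liver, a lower level can come from fewer cells of a type or from less RNA per cell, and these cannot be told apart.

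**Figure D2:**
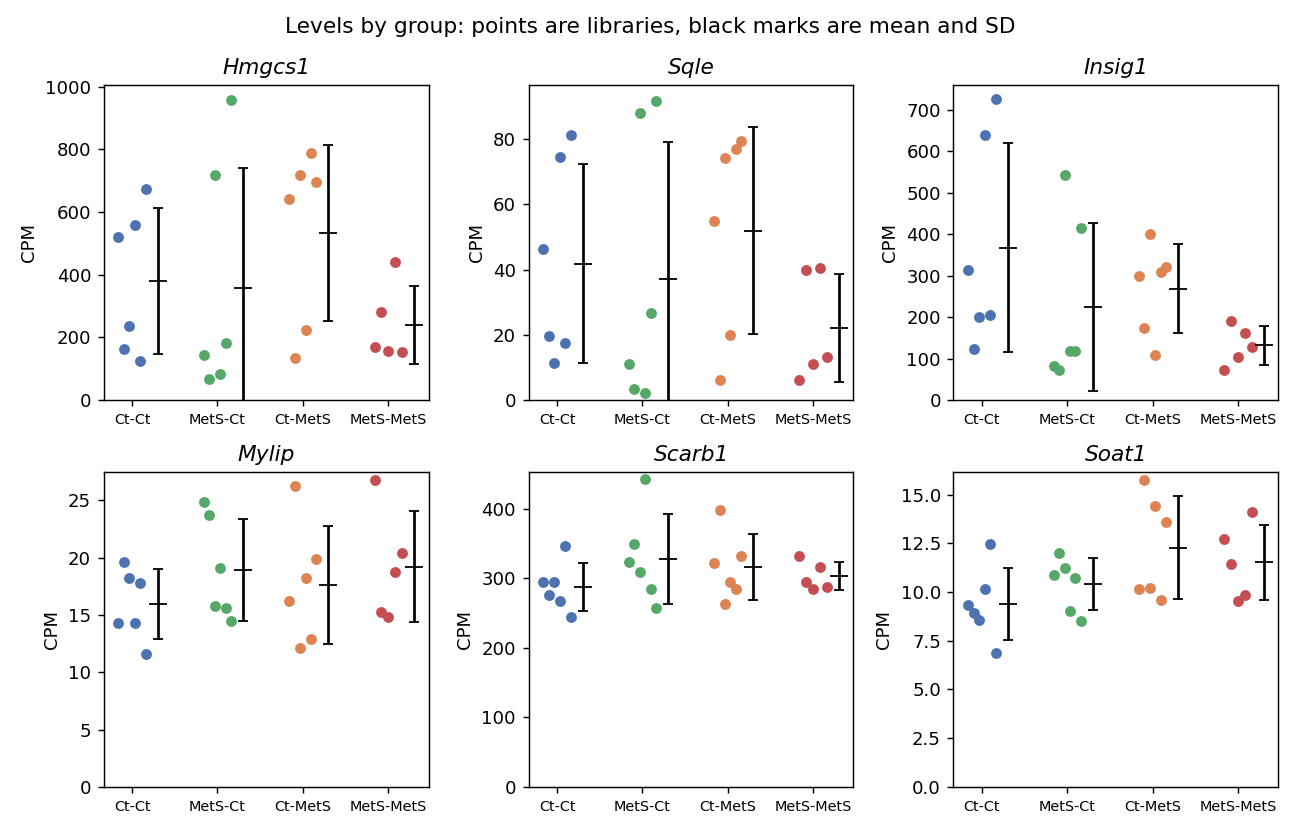
CPM (vertical axes, from 0) of 6 members in the 4 groups; each point is 1 library, and the black marks give the group's mean with its SD (bars that would pass below 0 end at the axis). Hmgcs1 and Sqle spread widely inside each group, with MetS-MetS ending at 440 CPM of Hmgcs1, and Mylip, Scarb1 and Soat1 spread less.

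To measure how far the genes moved together, group means were removed and each gene was correlated with Hmgcs1 over the 23 libraries (26 relations; two-sided permutation within groups, adjusted over these relations). Of the 18 other synthesis genes, 17 followed Hmgcs1 at an adjusted p under 0.05, with r from 0.80 to 0.97, and the median of all 18 was 0.92. Over the whole transcriptome such likeness was rare: 114 of 14465 genes (0.788%) had r above 0.8. Among the members the closest was Mvd, with Pearson r = 0.97 and Spearman rho = 0.96 (both permutation p = 1e-05, the smallest these permutations can give). Without MetS-Ct_149 and MetS-Ct_70, the 2 libraries farthest from the Hmgcs1 median, r for Mvd was 0.97. Sqle gave r = 0.94, and 0.92 without those 2 libraries. Within Ct-Ct, MetS-Ct and Ct-MetS taken singly, r for Sqle was 0.87, 0.96 and 0.99 over 6 libraries each, and in the 5 MetS-MetS libraries it was 0.86. Over these 5 libraries r of the synthesis genes other than Lbr ran from 0.53 for Fdft1 to 0.94 for Tm7sf2. In Ct-Ct the same genes ran from 0.71 for Ebp to 0.997 for Fdft1. Values within a group rest on so few libraries that they are given as a description.

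Lbr was the exception among the synthesis genes. Its r was 0.37 (permutation p = 0.148, adjusted p = 0.153), rho was 0.37 (permutation p = 0.14), and without the 2 farthest libraries r was 0.20. Its sign was not the same in each group, with r = 0.57 in Ct-Ct and 0.86 in MetS-Ct, but -0.42 in Ct-MetS and -0.47 over the 5 MetS-MetS libraries. Leaving out single libraries moved its r between 0.25 (without MetS-Ct_149) and 0.61 (without Ct-MetS_50). Lbr and Tm7sf2 encode the 2 sterol C14 reductases, and Tm7sf2 followed Hmgcs1 at r = 0.90. Taking all 171 pairs of synthesis genes, the median r was 0.88 and 122 pairs exceeded 0.8.

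**Figure D3:**
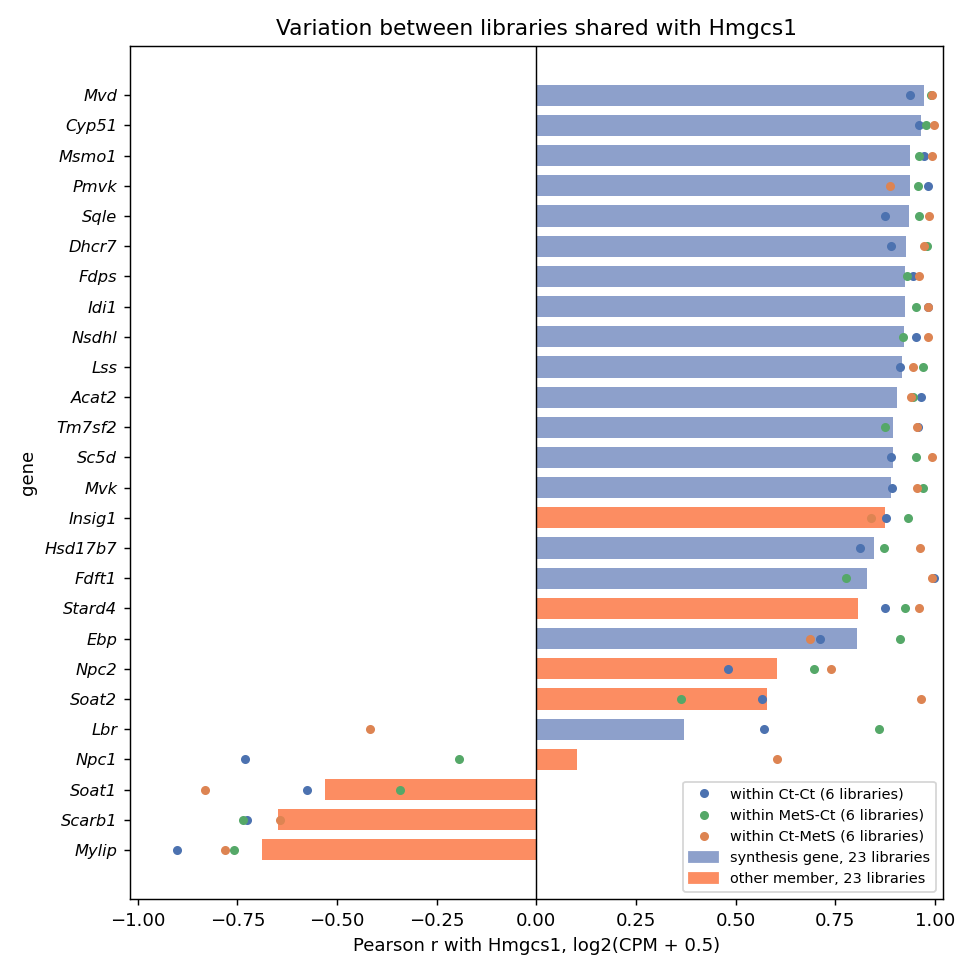
Bars are Pearson r with Hmgcs1 over 23 libraries after group means were removed (horizontal axis), for 26 members (vertical axis), and points are r within each group of 6 libraries. MetS-MetS (5 libraries) has no points. The bars of 17 synthesis genes lie at 0.80 or above, Lbr at 0.37 and Mylip at -0.69.

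The genes that sense and control sterol supply divided. Insig1, itself a target of SREBP2 and the protein that retains SCAP, followed Hmgcs1 with r = 0.88 and rho = 0.86 (permutation p = 2e-05 and 1e-05), and r was 0.84 without the 2 farthest libraries. Stard4, a carrier of free cholesterol in the cytosol, gave r = 0.81, or 0.74 without them. Mylip, the ubiquitin ligase that marks lipoprotein receptors for degradation, went the other way, with r = -0.69 (permutation p = 0.0009, adjusted p = 0.0012), rho = -0.68 and r = -0.64 without the 2 farthest libraries. In Ct-Ct, MetS-Ct and Ct-MetS r for Mylip was -0.90, -0.76 and -0.78 over 6 libraries each, and in the 5 MetS-MetS libraries it was weaker, at -0.21. Its range was small, from 11.6 CPM in Ct-Ct_139 to 26.7 CPM in MetS-MetS_39, a 2.31-fold span.

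Levels of Insig1 at their lowest, median and highest were 109.04, 304 and 401 CPM in Ct-MetS, 73.5, 118 and 543 CPM in MetS-Ct, and 124.4, 259 and 725 CPM in Ct-Ct. The MetS-MetS livers had 72.9, 103, 128.5, 163 and 192 CPM. The lowest of them was marginally under the lowest MetS-Ct liver, and the groups overlapped. Stard4 ran from 51.8 to 187 CPM over all libraries, with group means of 128.8 ± 44.5 in MetS-MetS (SD, n = 5), 135 ± 30.0 in Ct-MetS (n = 6), 114.5 ± 61.4 in MetS-Ct (n = 6) and 139.5 ± 31.5 in Ct-Ct (n = 6). The Stard4 means differed by less than the spread inside MetS-Ct.

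Genes of uptake, lysosomal exit and storage were steadier than most synthesis genes. Scarb1, the receptor that takes cholesteryl ester from high-density lipoprotein, was lower where Hmgcs1 was higher (r = -0.65, permutation p = 0.0053, adjusted p = 0.006; rho = -0.57), within a span of 245 to 444 CPM. Its sign was not the same in each group, with r = -0.73 in Ct-Ct, -0.74 in MetS-Ct and -0.64 in Ct-MetS but 0.31 in the 5 MetS-MetS libraries. Soat1, the cholesterol acyltransferase of many cell types, gave r = -0.53 (permutation p = 0.0112, adjusted p = 0.0122). Soat2, the acyltransferase of hepatocytes and intestine, gave r = 0.58 (permutation p = 0.0047, adjusted p = 0.0058), so the 2 enzymes of the same reaction were related to Hmgcs1 with opposite sign. Npc2, which hands cholesterol to Npc1 inside lysosomes, gave r = 0.60 (permutation p = 0.0053, adjusted p = 0.006), and Npc1 itself gave r = 0.10 (permutation p = 0.64). Over all 14465 other genes tested, r with Hmgcs1 ran from -0.90 to 0.97. How many of them passed the permutation test was not counted, so these weaker relations have no background beside them. Npc1l1, the intestinal uptake transporter, had 24 counts in all libraries together and at most 3 in any of them, which put it under the count minimum, and it was not tested.

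Levels were expressed per kilobase of exon to set different genes side by side. The length joins all annotated exons of a gene, used in liver or not, so the order is rough. By this measure the mean level was highest for Sc5d (138.9 CPM per kb), the sterol desaturase, followed by Ebp (85.8), Hmgcs1 (83.6) and Insig1 (81.9). The last 3 lay closer to each other than the spread of Hmgcs1 between libraries. Soat2 (40.7 CPM per kb) was above Soat1 (1.11), Scarb1 stood at 36.4, and Npc1l1 was last at 0.00874. Fdps, the farnesyl diphosphate synthase, stood at 0.669 CPM per kb, far under its neighbours in the pathway. For Fdps, 26.2% of the 50-base stretches of its exons occur in other genes too, and the share was 39.1% for Acat2 and 17.7% for Idi1, so the levels of these 3 are uncertain.

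Against this spread between livers, no member passed the test in any comparison of groups. For nursing by a MetS dam against nursing by a Ct dam, averaged over both kinds of birth dam (11 against 12 mice), edgeR's quasi-likelihood test called 0 of the 27 members tested, while it called 4.22% of all 14466 genes. At an unadjusted p under 0.05 there were 2 members, Npc2 and Soat1, where 21.2% of all genes passed. DESeq2 and limma-voom also called 0 members, beside 7.21% and 3.74% of all genes. The median log2 fold change of the 19 synthesis genes was -0.18, against -0.01 for all genes, and 16 of the 19 lay below 0. With limma-voom that median was 0.02, so its direction depended on the tool. Leaving out 1 library at a time moved it between -0.29 (without MetS-MetS_154) and -0.01 (without MetS-Ct_149) in postnatal exposure.

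The estimates were wide for the synthesis genes. Hmgcs1 differed by -0.04 on the log2 scale between the nursing groups, with a 95% interval from -0.98 to 0.89 (edgeR adjusted p = 0.972). Sqle differed by -0.22, with an interval from -1.42 to 0.99, Idi1 by -0.30 (-1.25 to 0.65), Fdps by -0.84 (-2.01 to 0.32) and Cyp51 by -0.18 (-1.06 to 0.69). True differences anywhere inside these intervals remain compatible with the data of these mice. Insig1 differed by -0.61 (-1.39 to 0.17), Stard4 by 0.06 (-0.39 to 0.52), Mylip by 0.08 (-0.20 to 0.37), Npc1 by 0.12 (-0.17 to 0.41) and Scarb1 by 0.01 (-0.16 to 0.19). The interval of Scarb1 was among the narrowest of the members.

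Npc2 averaged 95.01 CPM in the 11 mice nursed by MetS dams and 83.3 CPM in the 12 nursed by Ct dams (log2 difference 0.19 ± 0.08 SE, edgeR adjusted p = 0.145). By group, its lowest, median and highest levels were 74.5, 89.98 and 121 CPM in Ct-MetS, 67.4, 88.1 and 95.3 CPM in MetS-Ct, and 63.5, 80.3 and 92.2 CPM in Ct-Ct. The MetS-MetS livers had 90.4, 96.5, 98.9, 99.1 and 99.97 CPM, all but 1 of them above every Ct-Ct liver. Soat1 averaged 11.9 and 9.90 CPM in the same 2 sets of mice (log2 difference 0.27 ± 0.11 SE, adjusted p = 0.146). Macrophages are known to express both genes, and the macrophage list also differed between the groups. For postnatal exposure edgeR called 6 of its 11 markers higher and 0 lower, beside 329 higher and 282 lower of all 14466 genes. In MetS-Ct against Ct-Ct it called 0 of the 11, and 5 had an unadjusted p under 0.05, beside 5.9% of all genes. The summed level of that list was 566 to 950 CPM in MetS-MetS, 654 to 925 in Ct-MetS, 596 to 669 in MetS-Ct and 450 to 578 in Ct-Ct, with no marker at 0 in all libraries. Its part in the Npc2 and Soat1 values was not tested.

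For birth to a MetS dam against birth to a Ct dam, averaged over both kinds of foster dam, edgeR called 0 of 27 members and 0.00691% of all genes. At an unadjusted p under 0.05 there were 2 members, Insig1 and Soat2, beside 16.3% of all genes; with 1 library left out this count for prenatal exposure ran from 0 to 12, the highest without MetS-Ct_149. DESeq2 and limma-voom called 0 members, beside 0.972% and 0.00691% of all genes. Insig1 averaged 183 CPM in the 11 mice born to MetS dams and 318 CPM in the 12 born to Ct dams (log2 difference -0.87 ± 0.38 SE, edgeR adjusted p = 0.261). Soat2 averaged 81.0 and 98.2 CPM (log2 difference -0.28 ± 0.13 SE, adjusted p = 0.304). Of the synthesis genes 18 of 19 were below 0, with a median log2 difference of -0.51, against 0.00 (51.1% of genes below 0) over all genes tested. These 19 genes vary together between livers, so their signs are not independent of each other. Of 8 clock genes tested, which follow the hour of the day, edgeR called 0 for prenatal exposure, 4 had an unadjusted p under 0.05 and the median log2 difference was 0.83; their part in these values was not tested. Hmgcs1 differed by -0.62 (95% interval -1.56 to 0.33) and Sqle by -0.70 (-1.91 to 0.52).

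Pups exposed at both times had the lowest mean of the summed synthesis genes. MetS-MetS against Ct-Ct gave 0 of 27 members called by edgeR, beside 5.78% of all genes, and 0 by DESeq2 and limma-voom, beside 9.35% and 3.46%. At an unadjusted p under 0.05 there were 7 of 27 members, where 24.4% of all genes passed, so the share among the members was near the background; the count was 3 without Ct-Ct_129 or without Ct-Ct_139 and 4 without Ct-Ct_4, MetS-MetS_39 or MetS-MetS_157. They were Acat2, Pmvk, Fdps, Lss, Insig1, Soat2 (all with negative estimates) and Npc2 (positive). The median log2 difference of the synthesis genes was -0.74, 18 of 19 were below 0, and the median over all genes was 0.00. Of the 8 clock genes tested between the same groups, edgeR called 0, 4 had an unadjusted p under 0.05, and their median log2 difference was 0.88. The clock output gene Dbp averaged 142 ± 105 CPM in MetS-MetS (SD, n = 5) and 25.9 ± 12.1 in Ct-Ct (n = 6). Its part in the lower synthesis estimates was not tested.

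The gene nearest to a call in that comparison was Insig1, at 132 ± 47.0 CPM in MetS-MetS (SD, n = 5) and 368 ± 252 in Ct-Ct (n = 6), a log2 difference of -1.48 ± 0.56 SE with edgeR adjusted p = 0.109. Pmvk, phosphomevalonate kinase, had 28.8 ± 7.89 and 65.3 ± 34.1 CPM (log2 difference -1.18, adjusted p = 0.123), and Lss, lanosterol synthase, had 39.4 ± 13.9 and 87.6 ± 55.9 CPM (-1.15, adjusted p = 0.197). All 5 MetS-MetS livers lay below the Ct-Ct mean for these 3 genes, and for each the 2 groups overlapped. Hmgcs1 differed by -0.66 (95% interval -2.03 to 0.71) and Fdps by -1.91 (-3.68 to -0.13, adjusted p = 0.174). The smallest adjusted p of any member over all comparisons and settings tried was 0.0677, from DESeq2 in this comparison.

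**Figure D4:**
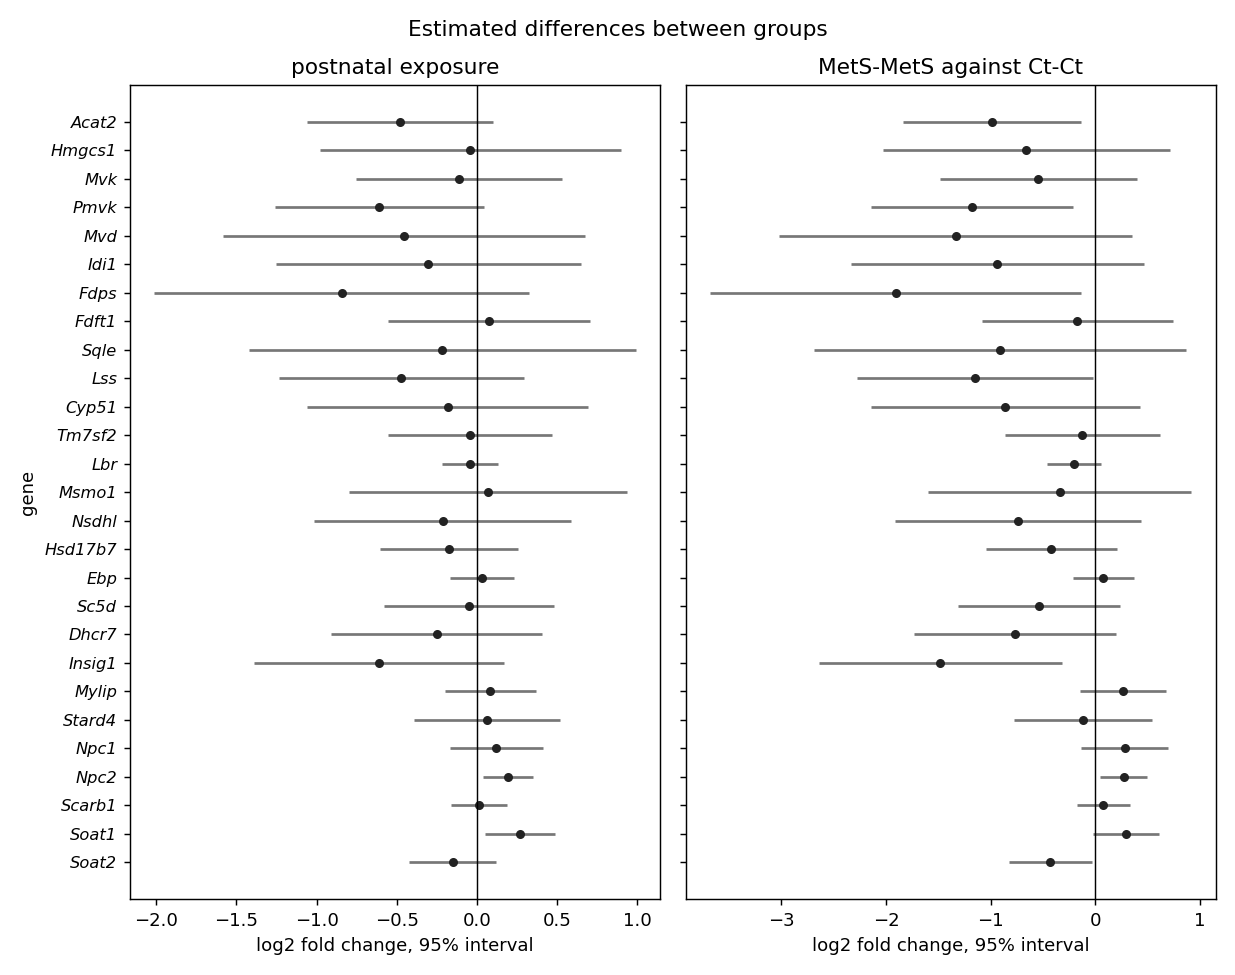
Points are edgeR log2 fold changes and lines their 95% intervals (horizontal axis) for 27 members (vertical axis), for postnatal exposure on the left and MetS-MetS against Ct-Ct on the right; negative values are lower with exposure. Intervals of Sqle, Mvd and Fdps span more than 2 log2 units, those of Lbr, Ebp, Npc2 and Scarb1 are narrow, and no member has an adjusted p under 0.05.

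Exposure at a single time was compared with none in the same way. MetS-Ct against Ct-Ct had 0 members called by edgeR, DESeq2 or limma-voom, and 0 at an unadjusted p under 0.05 by edgeR. Of all genes, edgeR called 0.0%, DESeq2 0.0833% and limma-voom 0.0%, and 5.9% had an unadjusted p under 0.05. Ct-MetS against Ct-Ct also had 0 members called by the 3 tools, beside 0.954%, 2.95% and 1.04% of all genes in the same order. There was 1 member at an unadjusted p under 0.05, where 13.9% of all genes passed, namely Soat1 (12.3 ± 2.62 against 9.40 ± 1.86 CPM, log2 difference 0.39 ± 0.15 SE, edgeR adjusted p = 0.211). The median log2 difference of the synthesis genes was -0.27 in MetS-Ct against Ct-Ct and 0.02 in Ct-MetS against Ct-Ct. Single libraries moved both medians: the first ran from -0.66 (without MetS-Ct_149) to -0.05 (without Ct-Ct_139), and the second changed sign, from -0.08 (without Ct-Ct_10) to 0.16 (without Ct-Ct_139). Both comparisons and that of MetS-MetS share the 6 Ct-Ct libraries, so they are not independent of each other.

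The groups were also compared with each other directly. The interaction, which asks whether nursing by a MetS dam acted differently in pups of MetS and Ct birth dams, had 0 members called by edgeR, DESeq2 or limma-voom, and 0 at an unadjusted p under 0.05 by edgeR, where 5.44% of all genes passed. The 3 tools called 0.0%, 0.0278% and 0.0% of all genes. Its interval for Hmgcs1 ran from -2.96 to 0.81 on the log2 scale. The 3 remaining pairs of groups had 0 members called by any of the 3 tools. For MetS-MetS against MetS-Ct, edgeR, DESeq2 and limma-voom called 0.415%, 0.945% and 0.0691% of all genes, and 14.1% had an unadjusted edgeR p under 0.05. For MetS-MetS against Ct-MetS these shares were 0.0%, 0.257%, 0.0% and 15.6%, and for MetS-Ct against Ct-MetS they were 0.076%, 0.674%, 0.0553% and 12.6%. The only member at an unadjusted p under 0.05 by edgeR in these 3 was Lbr, at 23.2 ± 1.73 CPM in MetS-MetS and 27.8 ± 4.36 in Ct-MetS (log2 difference -0.26, edgeR adjusted p = 0.312).

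Other genes of sterol handling were examined as a list of 29, of which 28 were in the table and all 28 were tested. The regulators moved with the synthesis genes from liver to liver: over 42 relations of listed genes with Hmgcs1, Srebf2 gave r = 0.90 and Scap r = 0.87 (permutation p = 2e-05 and 4e-05, adjusted p = 0.00028 and 0.000336). Insig2, the second retention protein, gave r = -0.11 (permutation p = 0.653). Erg28, a scaffold of the sterol demethylation enzymes, gave r = 0.92, and Acss2, which makes acetyl-CoA from acetate, r = 0.90. Cyp7a1, the rate-limiting enzyme of bile acid synthesis, went the other way at r = -0.62 (permutation p = 0.00544, adjusted p = 0.0163), as did Lcat at r = -0.65 (permutation p = 0.00465, adjusted p = 0.0159). The other listed genes of bile acid synthesis, Cyp8b1 (r = 0.30), Cyp7b1 (0.29) and Cyp27a1 (-0.32), did not pass. Srebf2 itself ran from 49.9 to 121 CPM over all libraries, a 2.41-fold span.

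Between groups, edgeR called 2 of these 28 for postnatal exposure, beside 4.22% of all genes, and 4 of 28 in MetS-MetS against Ct-Ct, beside 5.78%. For postnatal exposure Stard3, a sterol carrier of late endosomes, was higher (log2 difference 0.16 ± 0.04 SE, adjusted p = 0.0373) and Acly, which makes cytosolic acetyl-CoA from citrate, was lower (-1.53 ± 0.42 SE, adjusted p = 0.0427). In MetS-MetS against Ct-Ct, Stard3 (0.29, adjusted p = 0.0155) and the sterol receptor gene Nr1h3 (0.21, adjusted p = 0.0399) were higher, and Acly (-2.47, adjusted p = 0.0276) and the sterol transfer protein gene Gramd1c (-0.65, adjusted p = 0.0201) were lower. None of the 28 was called in the other 7 comparisons by edgeR. Srebf2 and Scap were not called, at -0.05 and -0.02 for postnatal exposure and -0.24 and -0.33 for prenatal exposure, and Insig2 was at 0.13 and 0.38.

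Fatty acid synthesis shares its supply of acetyl-CoA and NADPH with the sterol pathway, and its genes were related to Hmgcs1 more loosely. Fasn, fatty acid synthase, gave r = 0.75 (permutation p = 0.00063, adjusted p = 0.00357; rho = 0.70; 0.69 without the 2 farthest libraries). Of the 6 genes listed for lipogenesis, edgeR called 5 lower in MetS-MetS against Ct-Ct and 3 lower with postnatal exposure. Of all 14466 genes it called 393 and 282 lower in these comparisons, and of the 19 synthesis genes of cholesterol 0. In Ct-MetS livers Fasn ran from 173 to 499 CPM and in Ct-Ct livers from 298 to 3850 CPM (log2 difference -2.07 ± 0.64 SE, adjusted p = 0.124), while Hmgcs1 in the same 2 groups ran from 134 to 787 and from 124.5 to 674 CPM. The difference between the responses of the 2 pathways was not tested.

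**Figure D5:**
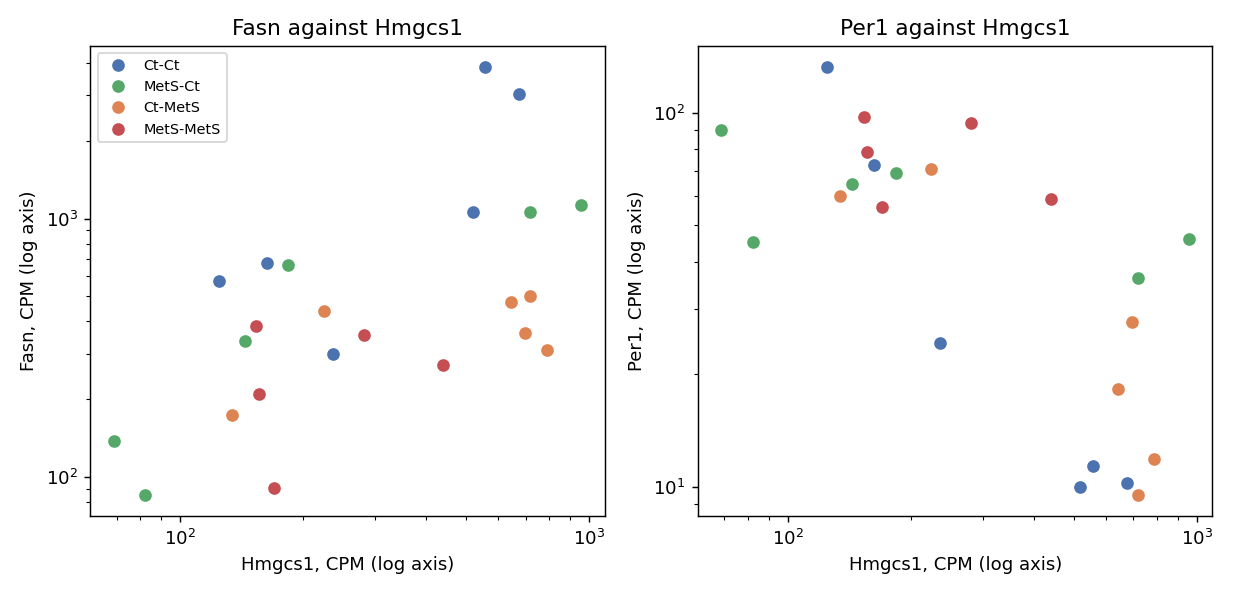
Each point is 1 library, coloured by group, with Hmgcs1 in CPM on the horizontal log axis and Fasn (left) or Per1 (right) in CPM on the vertical log axis. Fasn is higher and Per1 lower where Hmgcs1 is high, and Ct-MetS livers reach 787 CPM of Hmgcs1 with at most 499 CPM of Fasn.

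Clock genes also differed from liver to liver, and no label gives the hour of collection. Per1 had the strongest relation of the 8 clock genes tested, with r = -0.70 with Hmgcs1 (permutation p = 4e-05, adjusted p = 0.000336; rho = -0.75; -0.76 without the 2 farthest libraries). Ciart also passed (r = -0.59, permutation p = 0.00492, adjusted p = 0.0159). The others did not pass: Nr1d1 gave r = 0.50 (permutation p = 0.0278, adjusted p = 0.0615), Per2 -0.35, Tef -0.22, Nr1d2 0.19, Arntl 0.10 and Dbp 0.14 (permutation p = 0.529). In 3 libraries Dbp was between 2.33 and 3.27 CPM: MetS-Ct_53, Ct-MetS_50 and MetS-MetS_39. The same 3 had the 3 highest Insig2 levels, 353 to 1030 CPM, and summed synthesis levels of 1052 to 1199 CPM. Without them r with Hmgcs1 was 0.94 for Sqle, 0.97 for Mvd and 0.63 for Lbr over 20 libraries (permutation p = 0.024, adjusted p = 0.0283 for Lbr). Scarb1 (r = -0.58, permutation p = 0.0522, adjusted p = 0.0566) and Soat1 (r = -0.44, permutation p = 0.0551, adjusted p = 0.0573) then no longer passed. No member was called in a comparison of groups without them. The part of collection time in the shared variation was not tested.

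Outside the list, the genes most like the 19 synthesis genes were sought over 11266 genes averaging 50 counts or more, by their mean r with the 19 over 23 libraries after group means were removed. The highest was Rdh11, a retinol dehydrogenase, with a mean r of 0.89 and levels from 12.9 to 164 CPM. Cpn1 followed at 0.88, Mmab at 0.87, Slc25a1 (the mitochondrial citrate carrier) at 0.86, Pstpip2 at 0.85, Tmco6 at 0.83 and Erg28 at 0.83. Mmab is the gene across the 208-base promoter gap from Mvk printed above, and it ranged from 11.2 to 38.3 CPM. The most opposite gene was Nrbp2, with a mean r of -0.84. These likenesses describe the 23 libraries and were ranked, not tested.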

How the data were processed

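Counts per gene for 23 liver libraries were used as deposited by the authors. The submitters' processing notes name STAR, HTSeq, FastQC and DESeq2; build, annotation and strand setting: not given in the sources used here. Although the table is named normalized, every library held each whole number from 1 to 100 and size factors ran from 0.623 to 1.43, so they were read as raw counts. Groups came from the labels. Library numbers are animal numbers.

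Genes averaging 10 counts or more (14466) were tested with edgeR 4.0.16 (R 4.3.3): TMM, robust quasi-likelihood fit, 1 mean per group over all 23 libraries, Benjamini-Hochberg over all genes, called at an adjusted p under 0.05. CPM uses the TMM-scaled library size. SEs were derived from the F statistic. p-values measure the spread between these mice. Correlations used log2(CPM + 0.5) and 100000 permutations. The script was tested on simulated data. Alternatives were DESeq2 1.42.0, limma-voom (limma 3.58.1), other scaling and filters, only the groups compared, each library left out, and, chosen after seeing the data, leaving out the 3 libraries lowest in Dbp. Exon lengths came from GENCODE on GRCm38.

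Members and lists were chosen with earlier results of these data known. Named are all called members, 13 members fixed by name, Srebf2, Scap, Insig2, called genes of the other list, and the 8 genes most like the synthesis genes, of which 1 is not reported here. Other members are named for their range, level or unadjusted p, after their values were seen. Acss2, Lcat, Fasn and the bile acid and clock genes were also named after their values were seen.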

Additional observations from a re-analysis of the deposited data

Results flagged for a closer look

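Among 108 sets of values (each tested member in each group), 1 held a library far from the rest of its group: Npc2 in MetS-Ct_70, at 67.4 CPM, where the nearest of the other 5 MetS-Ct livers had 87.3 CPM. The gap was 0.715 of the group's range. Chance alone flags about 1 in 20 such sets. MetS-Ct_70 was also the library with the lowest summed level of the synthesis genes, 791 CPM.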

How the results depend on the processing

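No member was called in the 9 comparisons under the alternatives run, and the smallest adjusted p of a member was 0.0677. Correlation with Hmgcs1 passed the threshold for 23 to 25 of 26 members over the alternatives run. That threshold was adjusted over these relations only, and the share of all genes passing it was not counted. Named genes whose estimate changed sign were all uncalled, and some of their estimates moved widely. With limma-voom, postnatal exposure gave 0.26 for Hmgcs1, 0.16 for Sqle and 0.019 for Cyp51 on the log2 scale, and Idi1 in Ct-MetS against Ct-Ct gave -0.046. Without the 3 libraries lowest in Dbp, postnatal exposure gave 0.027 for Hmgcs1, -0.019 for Mylip and -0.046 for Scarb1. MetS-Ct against Ct-Ct then gave 0.084 for Hmgcs1 and 0.023 for Sqle, Ct-MetS against Ct-Ct gave -0.0075 for Mylip, 0.061 for Stard4 and 0.030 for Npc1, and MetS-MetS against Ct-Ct gave 0.072 for Stard4. The cause was not tested.

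Leaving out 1 library at a time, postnatal exposure ranged from -0.21 to 0.25 for Hmgcs1, from -0.38 to 0.034 for Sqle, from -0.32 to 0.031 for Cyp51, from -0.027 to 0.065 for Scarb1 and from -0.014 to 0.16 for Stard4, and prenatal exposure from -0.015 to 0.075 for Soat1. MetS-Ct against Ct-Ct ranged from -0.66 to 0.16 for Hmgcs1, from -0.67 to 0.13 for Sqle and from -0.13 to 0.029 for Npc1. Ct-MetS against Ct-Ct ranged from -0.034 to 0.30 for Cyp51, from -0.13 to 0.23 for Idi1, from -0.0073 to 0.23 for Mylip, from -0.22 to 0.030 for Npc1 and from -0.11 to 0.061 for Stard4. MetS-MetS against Ct-Ct ranged from -0.27 to 0.072 for Stard4. No paired analysis was possible because animal numbers are not shared between groups. Npc1l1, with 24 counts in all libraries together, was too low to be tested, and Fdps averaged 79.5 counts per library. How much counting error adds to the intervals of the members was not tested.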
